A study of Mus musculus with 12 samples.

Results

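The hippocampus and the cortex of embryonic day 15 (E15) mice were compared by the 1 array made from each, which are 2 of the 12 arrays in the series. Both arrays measured gene expression in total RNA of strain Sv129s6 embryos of mixed sex, untreated and with no transgene named in the labels. The RNA on each was a pool of 3 sets, so that the spread between embryos or litters cannot be seen. The other 10 arrays hold E15 ventral telencephalon and E15 midbrain, 1 array each, whose levels are given here for context, and 8 arrays of neurons derived from embryonic stem cells, which are not used here. All 4 tissue arrays lay on 1 slide. With 1 array a tissue no test between tissues is possible, and every difference below describes these 2 pools.

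The hippocampus forms at the medial edge of the pallium, beside the cortical hem, a strip of tissue that secretes WNT and BMP proteins. WNT ligands act through Frizzled receptors to stabilise beta-catenin, which turns on target genes together with the TCF and LEF factors. Several of those targets feed back to restrain the pathway. The choroid plexus, which makes cerebrospinal fluid, and the Cajal-Retzius cells, which secrete reelin, also arise at or near the hem. The isocortex forms further laterally, and its upper and deep layers hold neurons that send axons across the corpus callosum and to subcortical targets.

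Levels are log2 processed signals relative to the 75th percentile of the array, so that 0 is the signal of a spot brighter than 75% of the spots and 1 unit is a factor of 2. A difference is the hippocampus level minus the cortex level. A gene was compared when its probe was well above background on the higher of the 2 arrays, and it was counted when the difference was at least 2-fold. Levels of different genes come from different probes and are not set against each other.

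The largest differences were measured with 60-base probes. The first 30 bases of the probes for the genes that carry the contrast are shown, since every level below is the signal bound by such a stretch. They are written 5′ to 3′, with the whole probe's position on mm9 as the files give it. The 3 genes read on the first 4 lines mark the hem and its WNT signal, the next 2 genes mark hippocampal neurons, and the last 2 genes were higher in cortex.
Wnt8b, first probe, chr19:44588615-44588674, plus strand: gtggagacaactaacaacacacaagcatcc
Wnt8b, other probe, chr19:44585759-44585818, plus strand: cgtgggcttcggagaggcaatttccaagca
Rspo1, chr4:124686270-124686329, plus strand: ccgtggtacacgtcacggatgacctgactt
Lef1, chr3:130926200-130926259, plus strand: actgcaagcgccgacttccaaaaagaaagc
Prox1, chr1:191945785-191945844, minus strand: acgtttgttttcttagctggatttttgtgt
Zbtb20, chr16:43619030-43619089, plus strand: ttttttgcctgctggtacattacatttccg
Pou3f2, chr4:22414031-22414090, minus strand: aaggaggtggtgagagtttggttttgtaac
Ntsr1, chr2:180279625-180279684, plus strand: caataaaagaacaccctcctcatatgtctc

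Both arrays carried the marks of dorsal forebrain. Emx1, a factor of the pallium, read 2.38 in hippocampus and 1.90 in cortex, against -0.32 in ventral telencephalon and -4.45 in midbrain. Of 23 genes of midbrain, hindbrain and spinal cord, only 6 were above background on the higher of the 2 arrays and could be compared. Over all genes 26557 could be compared, against 35864 with no filter on dim probes. The 6 had a median difference of -0.24, with 1 at least 2-fold higher in hippocampus and 0 in cortex. The shares over all genes were 6.32% and 5.28%. Of 9 sex-linked genes 3 could be compared, and Xist read 1.11 in hippocampus and 1.07 in cortex. Sry was well above background on the cortex array alone, at -6.26 in hippocampus and -5.03 in cortex, a difference of at least 1.8-fold. Red blood cell genes had a median difference of 0.49 over 10 genes and endothelial and pericyte genes one of 0.20 over 18, and of these 28 genes 1 was at least 2-fold apart.

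Of 26557 genes compared, 1679 (6.32%) were at least 2-fold higher in hippocampus and 1403 (5.28%) were at least 2-fold higher in cortex. These 2 shares are the background to the counts of every gene list below. With normexp background correction and quantile normalization the counts were 657 and 347, a larger share toward hippocampus (65.4%, against 54.5%). The share was 52.0% with median scaling, 60.1% with both arrays required to be above background and 61.6% in the deposited series table. In the processing used throughout, at 4-fold the counts were 630 and 411, and at 8-fold 254 and 123. Most genes differed little, since 88.4% lay within 2-fold and the median difference was -0.085. Across these genes the 2 arrays correlated at r = 0.972, a description over genes that share a slide, a labelling and the same probes.

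Precision could be judged only from within the arrays. Probes spotted more than once, with every spot well above background, gave a technical SD of 0.213 for a difference. The error that the scanner software gave had a median of 0.205. A 2-fold difference exceeds both, but the SD does not cover genes that are dim on an array. For dim genes the software's error could be larger, as for Wnt3a at 1.47, and neither error holds any spread between embryos. Of those higher in hippocampus, 295 had another usable probe, and in 179 of them (60.7%) every probe passed 2-fold. Among those higher in cortex it was 94 of 269 (34.9%). For the genes higher in hippocampus the median difference was 1.34 by the second-brightest probe and 1.48 by the brightest, and for those higher in cortex it was -0.82 and -1.26. For 638 of the genes higher in hippocampus, the cortex array was not well above background, and for 711 of those higher in cortex the hippocampus array was not. Their fold is then a lower bound, given as "at least".

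**Figure D1:**
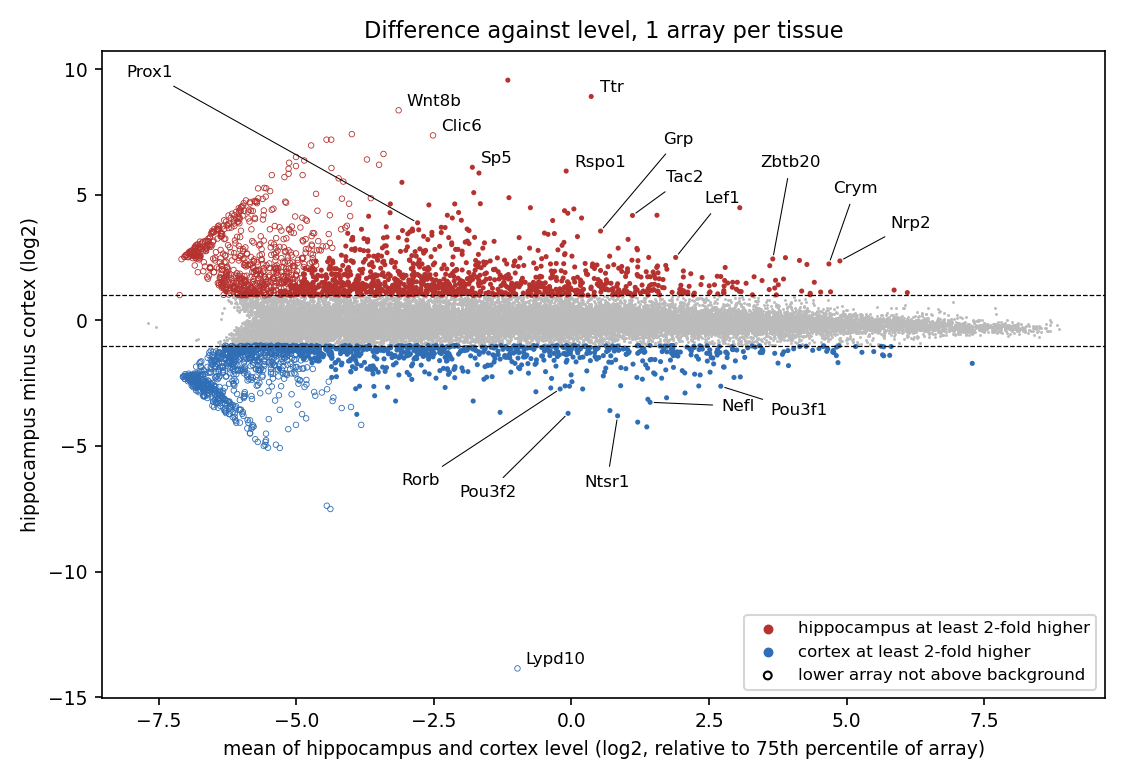
Difference between hippocampus and cortex (log2, vertical axis) against the mean level of each gene on both arrays (log2, horizontal axis), with 1 point for each of 26557 genes. Filled red points are at least 2-fold higher in hippocampus, filled blue points at least 2-fold higher in cortex, and open points have a lower array not above background, as for Lypd10 at the bottom. Ttr, at 8.92, and Ntsr1, at -3.80, are far toward hippocampus and toward cortex with both arrays above background.

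The genes of the cortical hem and roof plate were higher in hippocampus as a group. Of 28 compared, 20 were at least 2-fold higher in hippocampus and 1 was at least 2-fold higher in cortex, and the median difference was 2.33, against -0.085 over all genes. With normexp and quantile normalization the median was 1.44, and the medians of 3 lists described next also shrank by over 1.5 times: the WNT targets to 0.90, choroid plexus to 1.45 and meninges to 0.99, all still toward hippocampus. Single differences shrank as well, with the lowest value over the alternative settings at 4.65 for Wnt8b and 3.3 for Wif1, against 8.37 and 5.5. Wnt8b, a WNT ligand of the hem, read 1.04 in hippocampus, against -7.32 in cortex, -4.58 in ventral telencephalon and -5.14 in midbrain. It was highest in hippocampus among the 4 tissues, at least 132-fold above cortex, and its other probe read -2.35 in hippocampus and -7.32 in cortex, where the cortex value is again too dim for more than a lower bound. Rspo1, a secreted protein that strengthens WNT signals, read 2.88 in hippocampus and -3.07 in cortex, with -1.67 in ventral telencephalon and 0.09 in midbrain. That is a 61.7-fold difference with both arrays above background.

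BMP genes of the hem were higher in hippocampus as well. Bmp4 was 9.84-fold higher in hippocampus, with levels of -0.58 in hippocampus and -3.88 in cortex. Bmp7 was 5.89-fold higher, and Bmp6, which was not above background in cortex, at least 24.6-fold. None of these BMP genes was highest in hippocampus, since Bmp4 read 0.40 in midbrain. Bmp7 read 1.29 in hippocampus and 1.37 in midbrain, and Bmp6 read -1.38 and -0.44. Msx1, a transcription factor that BMP signals induce, was 7.12-fold higher in hippocampus than in cortex, at -0.69 in hippocampus and -0.91 in midbrain. Lmx1a, a roof plate transcription factor, read 0.20 in hippocampus and -4.44 in cortex, and it was as high in midbrain, at 0.45. Zic1 and Zic4, which encode zinc finger factors of the dorsal midline, were higher in hippocampus than in cortex by 2.11 and 3.31. Both were higher still in the other tissues. Zic1 read 3.85 in hippocampus, 4.77 in ventral telencephalon and 4.94 in midbrain, and Zic4 read -0.11, 1.89 and 1.58. Wnt3a, the ligand whose loss removes the hippocampus in mice, was near the floor. It read -4.92 in hippocampus, where it was above background, and -8.09 in cortex, a difference of at least 2.12-fold. The single member higher in cortex was Cux2, at 0.43 in hippocampus and 2.34 in cortex, a factor that also marks upper-layer neurons.

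The feedback targets of WNT signalling were higher in hippocampus too. Of 18 compared, 10 were at least 2-fold higher in hippocampus and 0 were at least 2-fold higher in cortex, with a median difference of 1.59. Sp5, a transcription factor induced by beta-catenin, read 1.25 in hippocampus and -4.85 in cortex, with -2.86 in ventral telencephalon and 2.18 in midbrain. Lef1, the partner of beta-catenin on DNA, read 3.15 in hippocampus and 0.64 in cortex, with 0.30 in ventral telencephalon and 3.93 in midbrain. Hippocampus and midbrain were thus high and the other 2 tissues low for both genes. The 2 probes of Lef1 gave 2.48 and 2.51. Axin2, a scaffold of the complex that degrades beta-catenin, was 3.02-fold higher in hippocampus, with levels of 0.53 in hippocampus and -1.07 in cortex, and its probes gave 1.55 and 1.59. Nkd1, Apcdd1, Rnf43 and Znrf3, all inhibitors of the pathway, were 3.20-fold, 3.61-fold, 19.6-fold and 3.01-fold higher. The secreted inhibitors Wif1 and Dkk1 were 45.2-fold and at least 5.05-fold higher. The 3 members on the cortex side differed by 0.62 at most.

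Among 31 other WNT ligands, receptors and modulators the picture was mixed. There were 10 at least 2-fold higher in hippocampus and 2 in cortex, with a median of 0.31. The ligand gene Wnt10a was at least 52.7-fold higher in hippocampus, where it read -0.28, against -7.70 in cortex. The receptor genes Fzd10, Fzd9 and Fzd7 were 15.8-fold, 3.31-fold and 3.27-fold higher in hippocampus, although the other probe of Fzd7 differed by -0.32. Wls, which carries WNT proteins to the cell surface, was 6.30-fold higher. Soluble antagonists were found on both sides. Frzb and Sfrp4 were 12.4-fold and 2.15-fold higher in hippocampus. The 2 genes at least 2-fold higher in cortex were Sfrp1, another soluble antagonist gene, and the receptor gene Fzd8. Sfrp1 read 0.17 in hippocampus and 1.39 in cortex, and Fzd8 read -1.5 in hippocampus and -0.47 in cortex.

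The promoter of Sp5 is shown because Sp5 led the WNT targets. It is the 250 bases before the RefSeq start of the gene, at chr2:70474673-70474922 of GRCm38.p6, plus strand, and the capitals mark the letters CTTTGA, the core that TCF and LEF factors bind.
Sp5 promoter: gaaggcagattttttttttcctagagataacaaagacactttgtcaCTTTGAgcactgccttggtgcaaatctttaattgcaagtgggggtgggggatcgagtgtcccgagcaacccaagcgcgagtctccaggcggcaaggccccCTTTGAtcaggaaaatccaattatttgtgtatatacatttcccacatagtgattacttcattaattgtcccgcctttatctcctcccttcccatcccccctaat
CTTTGA, or TCAAAG on the other strand, was searched in windows of 300 bases, 50 of them after the start. Of the 13 WNT targets compared that have a promoter in the RefSeq table, 2 held it, Sp5 and Dkk1, while 16.2% of 27025 promoters of all genes held it. The motif was thus about as frequent among the targets as among all promoters, and the match is a description of letters only.

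Choroid plexus genes made up the other large block. Of 21 compared, 15 were at least 2-fold higher in hippocampus and 0 in cortex, with a median of 2.81. Ttr, the transthyretin gene of choroid plexus epithelium, read 4.82 in hippocampus and -4.10 in cortex, with 1.24 in ventral telencephalon and 4.24 in midbrain. At 485-fold it was the largest of the named differences in favour of hippocampus, but the midbrain array was nearly as high. Clic6 and Kcne2, an intracellular chloride channel protein and a potassium channel subunit, were at least 144-fold and at least 45-fold higher. Otx2, a transcription factor needed for choroid plexus, was 29.6-fold higher at 1.31 in hippocampus and -3.58 in cortex, and it was highest in midbrain, at 4.25. The summed signal of the list was 6.05 in hippocampus, 4.58 in cortex, 5.63 in ventral telencephalon and 6.34 in midbrain. One of the 15, Htr2c, a serotonin receptor gene of this epithelium, meets the rule for a possible spot fault, and its other probe pointed the opposite way, at -4.22. Without it the counts were 14 of 20.

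Genes of meninges and mesenchyme were also higher in hippocampus. Of 22 compared, 16 were at least 2-fold higher in hippocampus and 0 in cortex, with a median of 2.04. Slc6a13, a GABA transporter gene of meningeal cells, read -0.13 in hippocampus and -4.20 in cortex, with -4.13 in ventral telencephalon and 2.30 in midbrain. The collagen genes Col1a1, Col1a2 and Col3a1 were 4.43-fold, 4.57-fold and 7.02-fold higher, and Aldh1a2, which makes retinoic acid in the meninges, 12.5-fold. The summed signal of the list was 5.01 in hippocampus, 3.70 in cortex, 3.48 in ventral telencephalon and 6.26 in midbrain. The part of meningeal, choroid plexus and hem cells in the other differences was not tested. In these bulk samples a larger share of cells of a type and more RNA per cell cannot be told apart.

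**Figure D2:**
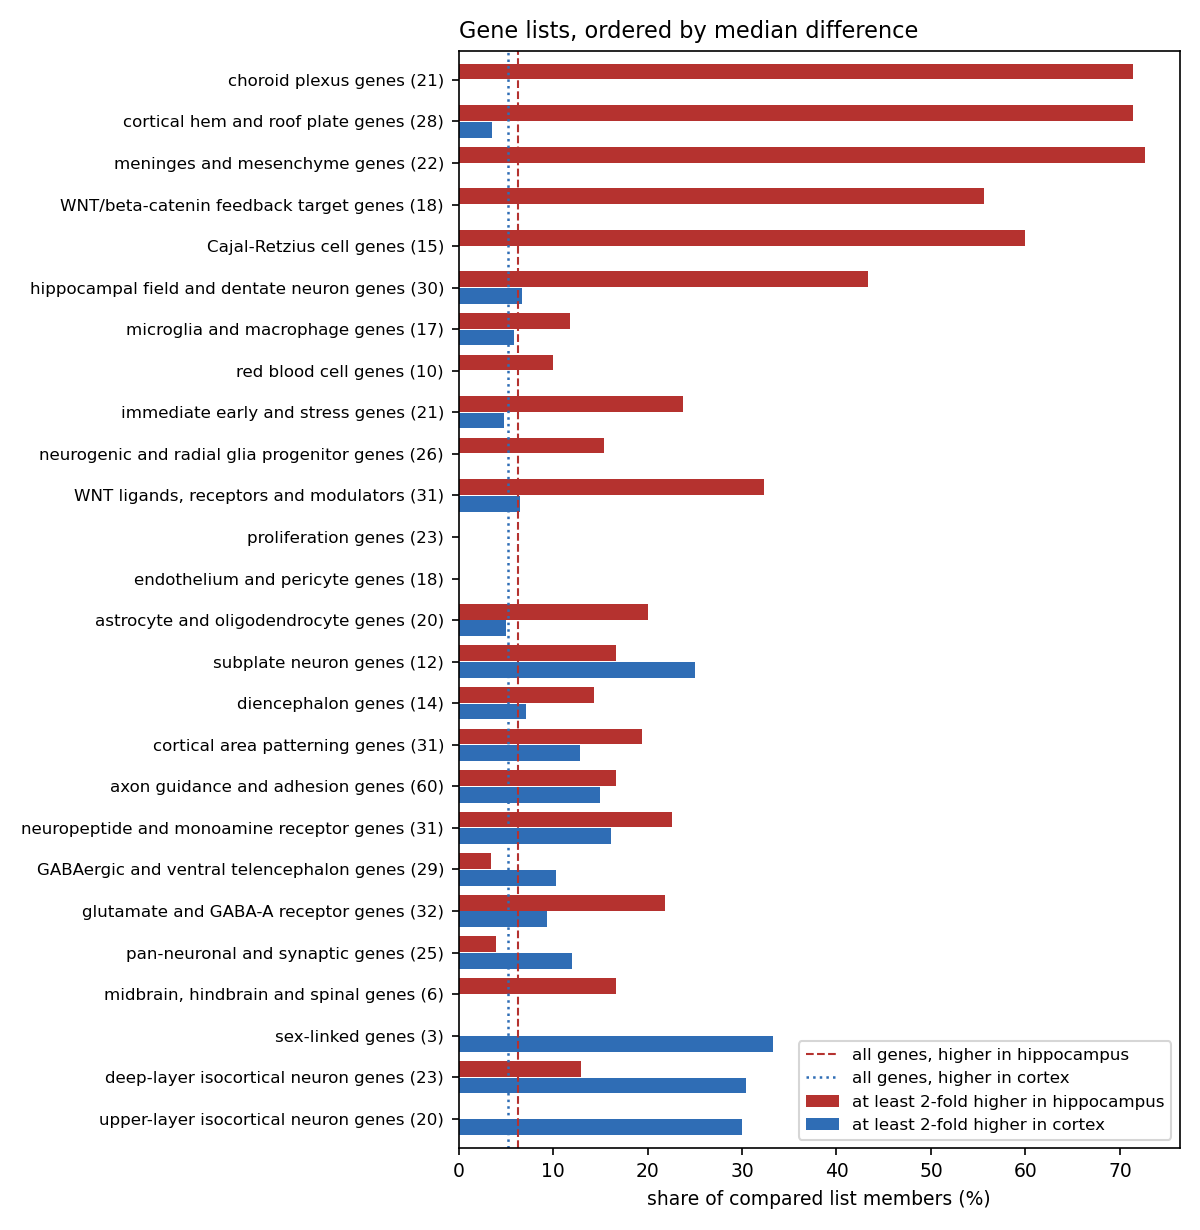
Share of the compared members of each of 26 gene lists that were at least 2-fold higher in hippocampus (red bar, above) and at least 2-fold higher in cortex (blue bar, below), in percent, with the number compared in brackets and the lists ordered by median difference. The dashed red line at 6.32% and the dotted blue line at 5.28% are the shares over all genes. Choroid plexus, hem, meninges, WNT target, Cajal-Retzius and hippocampal field lists have the long red bars, and the upper-layer and deep-layer lists, at 30% and 30.4%, and the subplate list, at 25%, have the long blue ones beside the sex-linked list, which holds 3 genes.

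Genes of hippocampal fields and of the dentate gyrus went both ways, more often toward hippocampus. Of 30 compared, 19 were higher and 11 lower in hippocampus, 13 were at least 2-fold higher in hippocampus and 2 in cortex, with a median of 0.68. Prox1, the factor of dentate granule neurons, read -0.85 in hippocampus and -4.74 in cortex, with -2.39 in ventral telencephalon and -3.16 in midbrain. Zbtb20, a repressor needed for hippocampal identity, read 4.88 in hippocampus and 2.44 in cortex, with 2.77 in ventral telencephalon and 1.83 in midbrain. Both were highest in hippocampus among the 4 tissues, by 14.8-fold and 5.45-fold over cortex. Neurod1, a factor of granule neuron differentiation, was 5.29-fold higher in hippocampus, with probes at 2.40 and 2.65. The semaphorin receptor gene Nrp2 was 5.17-fold higher, with probes at 2.37 and 2.68, and the gene of the gastrin-releasing peptide, Grp, was 11.8-fold higher. Grik4, a kainate receptor subunit gene of CA3 neurons, was 4.81-fold higher, and Wfs1 and Fibcd1, markers of CA1 neurons in the adult, were 2.56-fold and 3.55-fold higher. Neurod1, Nrp2 and Grp were highest in hippocampus among the 4 tissues, but Grik4, Wfs1 and Fibcd1 were not. Grik4 and Fibcd1 read 1.38 and -1.88 in hippocampus, against 1.73 and -1.07 in midbrain. Wfs1 read 0.15 in hippocampus, 0.90 in ventral telencephalon and 0.20 in midbrain. The other 2 counted members were lower: Pou3f1 read 1.40 in hippocampus and 4.03 in cortex, and Neurod6 read 4.36 in hippocampus and 5.37 in cortex.

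Factors that pattern the pallium by region gave differences in both directions. Of 31 compared, 6 were at least 2-fold higher in hippocampus and 4 in cortex, with a median of 0.02. Emx2, which is high medially and is needed for the hippocampus, read 1.99 in hippocampus and 0.05 in cortex, with -0.73 in ventral telencephalon and -0.39 in midbrain. Dmrt3, another medial factor, read 0.68 in hippocampus and -2.20 in cortex and was not well above background in either of the other tissues. Lhx2, which limits the hem and specifies cortex, differed little, at 6.14 in hippocampus and 5.65 in cortex. On the cortex side were Tenm3, at -4.54 in hippocampus and -2.48 in cortex, and Id2, at 4.12 in hippocampus and 5.51 in cortex.

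Cajal-Retzius cell genes were higher in hippocampus in 14 of 15 compared, and 9 were at least 2-fold higher, with 0 at least 2-fold higher in cortex and a median of 1.21. Reln, which encodes reelin, read 0.47 in hippocampus and -1.22 in cortex, with -1.29 in ventral telencephalon and -1.98 in midbrain. Calb2, the gene of the calcium-binding protein calretinin, was 8.09-fold higher in hippocampus. Lhx1, a LIM factor of these cells, was 4.10-fold higher by its brighter probe but differed by 0.25 by the other. By the brighter probe Lhx1 read -0.37 in hippocampus and 2.06 in midbrain. The summed signal of the list was 5.23 in hippocampus, 3.96 in cortex, 5.01 in ventral telencephalon and 6.79 in midbrain, so that midbrain was highest. Trp73, the p73 factor that marks hem-derived Cajal-Retzius cells, read -0.81 in hippocampus and -1.08 in cortex by its brightest probe, while its 3 probes spread from 0.27 to 1.92.

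Genes of upper-layer isocortical neurons leaned to cortex. Of 20 upper-layer genes, 6 were at least 2-fold higher in cortex and 0 in hippocampus, with a median of -0.60. Pou3f2, a POU factor of upper-layer neurons and their progenitors, read -1.91 in hippocampus and 1.79 in cortex, 13.0-fold higher in cortex, with 0.70 in ventral telencephalon and 0.34 in midbrain. Rorb, the layer 4 nuclear receptor gene, differed by -2.73 and -1.83 by its probes, and Mef2c, a factor of neuron maturation, was 6.09-fold higher in cortex. Inhba, at -1.52 in hippocampus and 0.80 in cortex, and Cux2 were also counted.

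Deep-layer genes split. Of 23 compared, 7 were at least 2-fold higher in cortex and 3 were at least 2-fold higher in hippocampus, with a median of -0.48. Foxp2, a layer 6 factor, read -4.90 in hippocampus and -2.28 in cortex, and Hs3st4, a sulfotransferase gene of the same layer, was 4.16-fold higher in cortex. Tbr1, the factor of corticothalamic neurons, read 4.64 in hippocampus and 5.69 in cortex, a 2.06-fold difference that both probes showed. Fezf2, which specifies subcerebral neurons, read 3.03 in hippocampus and 3.19 in cortex, and Bcl11b, which acts with it, read 3.68 in hippocampus and 4.21 in cortex, both within 2-fold. The members higher in hippocampus were Crym, which binds thyroid hormone, Pcp4 and Dkkl1, by 4.75-fold, 2.35-fold and 2.55-fold. Of 12 subplate genes, 3 (25%) were at least 2-fold higher in cortex and 2 (16.7%) in hippocampus, with a median of 0.16. The shares over all genes were 5.28% and 6.32%.

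**Figure D3:**
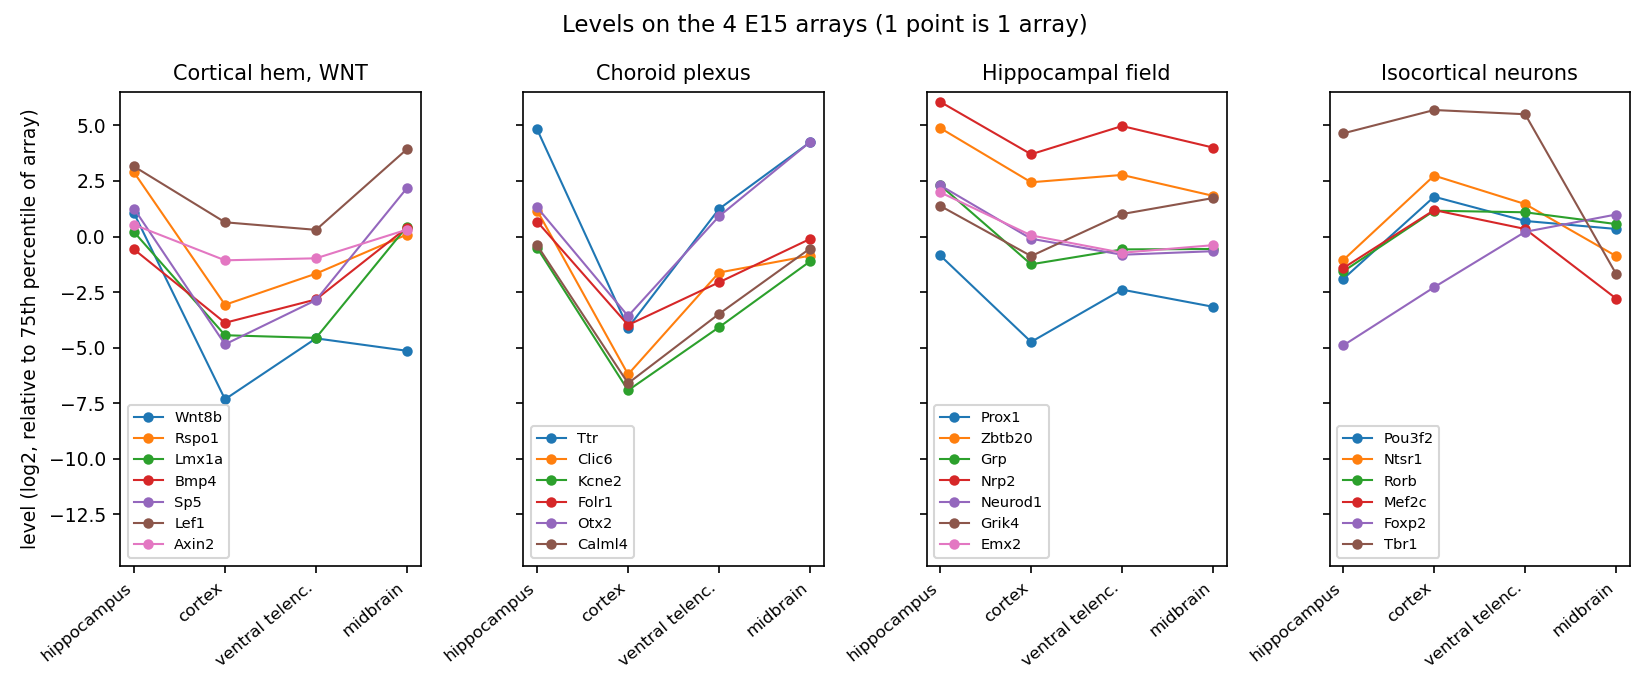
Levels of named genes on the 4 tissue arrays (log2 relative to the 75th percentile of each array, vertical axis), with 1 point for each array and lines joining the points of 1 gene. The first 3 panels show genes higher in hippocampus than in cortex, such as Ttr at 4.82 in hippocampus and -4.10 in cortex, and the panel at the right shows genes higher in cortex than in hippocampus, such as Ntsr1 at -1.06 in hippocampus and 2.74 in cortex.

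The very largest values in favour of cortex were mostly dim. Of the 15 largest, 11 were well above background on the cortex array only, and 1 had another probe. Lypd10, at -7.91 in hippocampus and 5.95 in cortex, was the extreme, and it read -7.19 in ventral telencephalon and -8.44 in midbrain, so it was bright on 1 array and at the floor on 3. Several of the 15 are olfactory or vomeronasal receptor genes with the same pattern, such as Olfr1427, at -8.14 in hippocampus and -0.75 in cortex. Of the 15 largest in favour of hippocampus, 2 were above background on that array only. Irak3, Klhl14 and Pdzph1 were among the members of the cortex 15 seen on at least 1 more array, and Klhl14 and Pdzph1 were higher in ventral telencephalon than in cortex.

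With both arrays required to be above background, Ntsr1, Gcg, Pou3f2 and Nefl were among the 15 genes most in favour of cortex. Ntsr1, Gcg, Tshz3 and Sla are named here after their values were seen. Ntsr1, the neurotensin receptor gene of layer 6 corticothalamic neurons, read -1.06 in hippocampus and 2.74 in cortex, with 1.46 in ventral telencephalon and -0.88 in midbrain, and its probes gave -3.80 and -2.12. Gcg, the glucagon gene, read -5.77 in hippocampus and -2.03 in cortex and rests on 1 probe. The zinc finger gene Tshz3 read 0.62 in hippocampus and 3.51 in cortex, and Sla, which encodes an adaptor protein, read 0.19 in hippocampus and 3.27 in cortex.

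Genes of neurons in general leaned to cortex, mostly by small differences, with the neurofilament genes among the larger ones. Of 25 pan-neuronal and synaptic genes, 6 were higher and 19 lower in hippocampus, with a median of -0.23. Over all genes 41.4% were higher in hippocampus and the median was -0.085. At least 2-fold higher in cortex were 3 (12%), against 5.28% over all genes. In hippocampus it was 1 (4%), against 6.32% over all genes. Tubb3, the neuronal tubulin gene, read 6.66 in hippocampus and 7.08 in cortex, and Dcx, a gene of migrating neurons, read 5.13 in hippocampus and 5.23 in cortex. The 3 neurofilament genes were all higher in cortex, Nefl by 9.57-fold, Nefm by 4.14-fold and Nefh by 2.20-fold, with -0.94 by the other Nefh probe. Nefl read -0.20 in hippocampus and 3.06 in cortex, and it was higher still in ventral telencephalon, at 3.31, and midbrain, at 4.98.

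Progenitor genes leaned to hippocampus. Of 26 compared, 4 (15.4%) were at least 2-fold higher in hippocampus and 0 in cortex, with a median of 0.41. The shares over all genes were 6.32% and 5.28%. The 4 were Neurod4, Hopx, Vim and Hes5, a set of neurogenic and radial glia genes, by 3.70-fold, 3.1-fold, 2.31-fold and 2.19-fold. Of 23 proliferation genes, 0 were 2-fold apart and 17 were higher in hippocampus, with a median of 0.26. Over all genes 41.4% were higher in hippocampus. Mki67, a marker of cycling cells, read 3.86 in hippocampus and 3.54 in cortex. Of 20 astrocyte and oligodendrocyte genes, 4 (20%) were at least 2-fold higher in hippocampus and 1 (5%) in cortex, with a median of 0.18. Gfap and Slc1a2, genes of radial glia and astrocytes, were 4.96-fold and 4.77-fold higher in hippocampus, and all 3 probes of each passed 2-fold.

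Genes of the GABAergic lineage were near even, with a median of -0.08 over 29 genes. At least 2-fold higher in hippocampus was 1 (3.45%) and in cortex 3 (10.3%), against 6.32% and 5.28% over all genes. Gad1, an enzyme gene of GABA synthesis, read 0.70 in hippocampus and 0.76 in cortex, against 3.44 in ventral telencephalon. Dlx2, a factor of ventral progenitors, read 1.68 in hippocampus and 2.29 in cortex, against 3.86 in ventral telencephalon. The exceptions were Npy, Drd1 and Gsx2, higher in cortex by 4.93-fold, 5.08-fold and 2.36-fold, and Zfp503, higher in hippocampus by 4.16-fold. Of 14 diencephalon genes compared, 2 (14.3%) were at least 2-fold higher in hippocampus and 1 (7.14%) in cortex, with a median of 0.07. Lhx9, a thalamic LIM factor, was 15.8-fold higher in hippocampus, with 3 probes between 3.98 and 4.09. It read 1.65 in hippocampus and -2.33 in cortex, against 0.19 in ventral telencephalon and 3.30 in midbrain.

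Axon guidance and adhesion genes went both ways, with 10 of 60 at least 2-fold higher in hippocampus, 9 in cortex and a median of -0.03. On the hippocampus side were the secreted guidance cues Ntn1, Slit3, Sema3c and Slit2, by 7.70-fold, 6.79-fold, 3.37-fold and 3.30-fold. On the cortex side were the receptor genes Robo2, Plxna4 and Unc5c, by 4.24-fold, 3.47-fold and 3.38-fold, and the repellents Sema3a and Sema3f, by 3.54-fold and 2.90-fold. Robo2 read 0.45 in hippocampus and 2.54 in cortex, and both its probes showed the difference, at -2.09 and -2.0.

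Receptors of transmitters were also divided. Of 32 glutamate and GABA-A receptor genes, 7 were at least 2-fold higher in hippocampus and 3 in cortex, with a median of -0.13. Gabrg1, Gabra4 and Gabra5, which encode GABA-A subunits, were 3.51-fold, 2.53-fold and 2.52-fold higher in hippocampus, while Gabrb2 was 2.37-fold higher in cortex. Of 31 neuropeptide and monoamine receptor genes, 7 were at least 2-fold higher in hippocampus and 5 in cortex, with a median of -0.04. Tac2, the neurokinin B gene, read 3.20 in hippocampus and -0.98 in cortex, with -2.42 in ventral telencephalon and -3.93 in midbrain, an 18.1-fold difference on 1 probe. Bdnf, the neurotrophin gene, was 3.56-fold higher in hippocampus, and Npy1r, a neuropeptide Y receptor gene, was 4.28-fold higher in cortex. The immediate early genes Fos and Arc, which neuronal activity induces, were 3.44-fold and 2.51-fold higher in hippocampus, among 5 of 21 immediate early and stress genes at least 2-fold higher there. In cortex 1 was at least 2-fold higher, and the median of the 21 was 0.43. Of 17 microglia and macrophage genes, 2 (11.8%) were at least 2-fold higher in hippocampus and 1 (5.88%) in cortex, with a median of 0.52. The shares over all genes were 6.32% and 5.28%, so that counts this small say little.

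Most genes higher in hippocampus than in cortex were not also 2-fold above both other tissues. Of the 1679, 557 (33.2%) were at least 2-fold above each of the other 3 tissues, while in 1066 (63.5%) midbrain was within 2-fold of hippocampus or above it and in 705 (42%) ventral telencephalon was. Of the 1403 genes higher in cortex, 443 (31.6%) were at least 2-fold above each other tissue, in 805 (57.4%) midbrain was within 2-fold of cortex or above it, and in 763 (54.4%) ventral telencephalon was. Between hippocampus and cortex 11.8% of the genes above background were at least 2-fold apart when no possible spot fault was left out, against 16.1% between hippocampus and ventral telencephalon, 21.2% between hippocampus and midbrain, 14.7% between cortex and ventral telencephalon, 21.9% between cortex and midbrain and 14.2% between ventral telencephalon and midbrain. Hippocampus and cortex were thus the closest of the 6 pairs by this count.

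Another 81 genes were left out of the counts over all genes as possible spot faults, since 1 of the 2 arrays was at least 3 log2 units from the median of the other 3 tissue arrays while those lay within 1 unit. The gene lists kept such members, of which there was 1, Htr2c. The odd array was high in hippocampus for 33, low in hippocampus for 2, high in cortex for 13 and low in cortex for 33. Only 10 had another usable probe, and in 4 of these it passed 2-fold the same way. Synj1, which encodes a synaptic phosphatase, read 2.46 in hippocampus and -6.53 in cortex by 1 probe, but its other probe differed by -0.02. Ghrhr, a hormone receptor gene, read -6.22 in hippocampus and 6.02 in cortex, and rests on 1 probe. A further 82 genes high in hippocampus and 67 high in cortex were well above background on that array only. Each was at least 3 log2 units above the median of the other 3 arrays. These lone spots, Lypd10 among them, stayed in the counts, since the other 3 arrays did not lie within 1 unit.

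**Figure D4:**
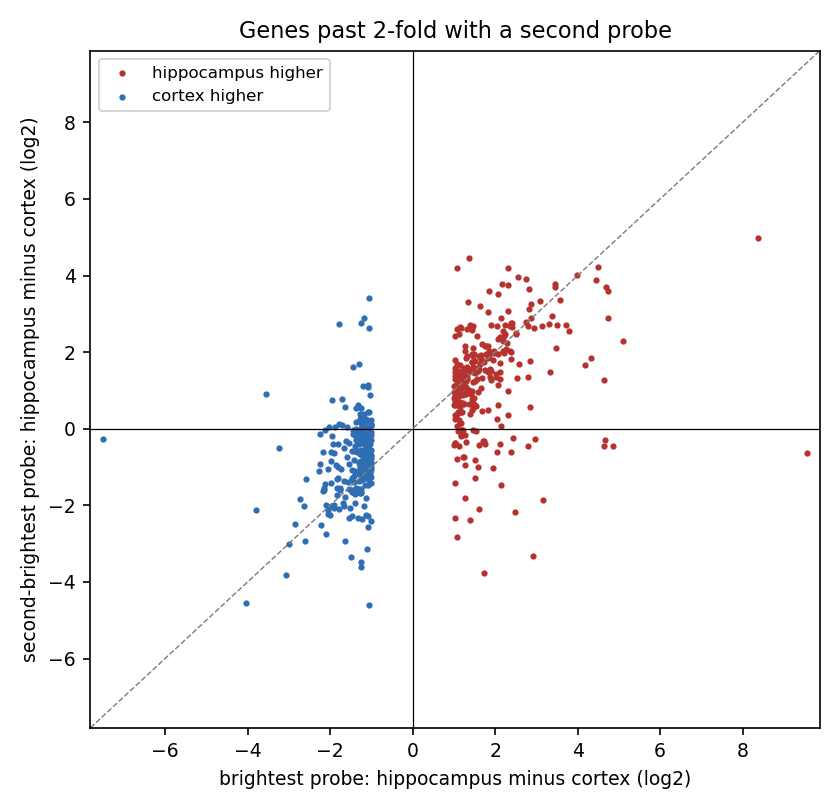
Difference by the second-brightest probe (log2, vertical axis) against the difference by the brightest probe (log2, horizontal axis), for the 295 genes of the hippocampus side (red) and the 269 of the cortex side (blue) that passed 2-fold and had another usable probe. Points on the dashed line have equal differences; the median by the second probe was 1.34 for the red points and -0.82 for the blue points.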

How the data were processed

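Cy3-labelled copies of the RNA of the 4 E15 tissues were read on 1-colour mouse arrays from Agilent, per the labels' protocols. The deposited scanner files hold spot intensity values from Agilent Feature Extraction 10.7.3.1, per the file headers, which subtracted background and detrended each array. The submitters' processing notes name Feature Extraction 9.1 and limma. The deposited series table holds log2 values that the authors brought to near-equal distributions over the 12 arrays, by a method not given in the sources used here, and it served as an alternative only.

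The log2 processed signal was taken relative to the 75th percentile over 59305 non-control spots, after which spots flagged by the scanner software as outliers were dropped and repeats of a probe averaged. That percentile was at a signal of 679 in hippocampus and 641 in cortex, 65.1% and 66.8% of the spots were well above background, and 0 spots were saturated. The usable probe with the highest mean over the 4 arrays stood for its gene. Of 55681 probes, 26582 were named by accession in RefSeq (GRCm38.p6), 2602 by a current symbol, 492 by an older symbol and 26005 by the name in the file. Where an array was dim, a bound used the lowest signal of a spot well above background, at -5.88 in hippocampus and -6.00 in cortex. Probe positions are on mm9, per the file headers. A check for identical arrays found 0 pairs.

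Hippocampus and cortex had 1 array each, so no test was run. The number of arrays limits the precision. The genes named are the 15 largest differences each way with a symbol that is not anonymous, up to 4 members past 2-fold of each list on each side, and 19 anchor genes. Some genes that these rules name are not reported here. Others were named where a count or list called for it, after their values were seen. The comparison, the 26 lists and the rules were chosen with earlier results of these data known. The counting of genes past 2-fold was checked on simulated data. Alternatives were other scalings, normexp background correction with an offset of 50 followed by quantile normalization (limma 3.58.1), the deposited table, other probe rules, other filters and floors. Python 3.11.15 and R 4.3.3 were used.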

Additional observations from a re-analysis of the deposited data

How the results depend on the processing

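The genes past 2-fold toward hippocampus and toward cortex numbered 1679 and 1403. Median scaling, quantile normalization, the mean of all probes, possible spot faults kept, marked spots kept, a floored dim array and lone spots also set aside (an alternative chosen after seeing the data) gave 1454 to 1748 and 969 to 1483. Normexp together with quantile normalization gave 657 and 347, which moved the hippocampus share of these genes to 65.4%, against 54.5%. The deposited series table gave 1247 and 778, a share of 61.6%. A floored dim array gave 1454 and 969 (60.0%), and median scaling gave 1605 and 1483 (52.0%). No filter on dim probes gave 2443 and 2143 (53.3%), and above background on both arrays gave 1041 and 692 (60.1%). Requiring 2 or more probes that all passed, also chosen after seeing the data, gave 179 and 94 of 7291 genes (65.6%), fewer by construction. The cause of the other shifts was not tested. Of the 135 named genes past 2-fold, 123 stayed past it the same way in the deposited table and 99 with normexp and quantile normalization, and 0 named genes or list medians past 2-fold changed sign under the settings other than the 2 chosen after seeing the data. Medians ran from 1.44 to 2.33 for hem, 1.45 to 2.83 for choroid plexus, 0.99 to 2.04 for meninges, 0.90 to 1.59 for WNT targets, 0.49 to 0.68 for hippocampal field and -0.62 to -0.40 for upper-layer genes. Differences of dim genes rest on signal near background. No paired analysis was possible because each tissue has 1 array and the result comes from no test.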

Other observations

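A list of motile cilium genes was drawn up after their values were seen. Of 79 compared, 38 were at least 2-fold higher in hippocampus and 1 in cortex, and the median difference was 0.92. The shares over all genes were 6.32% and 5.28%, but a list chosen by its values cannot be weighed against them. Their median level was -2.20 in hippocampus, -3.63 in cortex, -2.07 in ventral telencephalon and -1.53 in midbrain. Foxj1, the master factor of motile cilia, read -0.05 in hippocampus and -1.73 in cortex, with -0.11 in ventral telencephalon and 0.15 in midbrain. Cfap126, a cilium protein gene, read 0.49 in hippocampus and -2.61 in cortex, and both its probes showed this, at 2.78 and 3.1. It is among 11 of these genes that meet the rule for possible spot faults, which also takes a gene that is low in cortex and alike in the other 3 tissues, as here. Without the 11, 27 of 68 were at least 2-fold higher in hippocampus and the median was 0.65. Choroid plexus genes were low in cortex as well, and the part of those cells in the cilium values was not tested.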
